A study of Solanum lycopersicum with 24 samples.

Results

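The difference between a drought-tolerant and a drought-susceptible tomato (Solanum lycopersicum) genotype in their leaf response to drought was measured on 12 of the 24 Affymetrix arrays of the series, 3 in each of 4 groups. Tolerant treated plants belonged to the Drought Tolerant genotype and went without water for 7 days, and tolerant control plants of that genotype were grown without stress. Susceptible treated plants belonged to the Drought Susceptible genotype and also went without water for 7 days, and susceptible control plants were grown without stress. All 4 groups were pot-grown, the controls in a greenhouse, and leaves were taken at the flowering stage. The labels name each genotype by its drought behaviour alone and give 1 genotype of each kind, so tolerance and any other difference between both lines cannot be told apart. They do not say that replicates came from separate plants, so p-values measure the spread between these arrays, which may be technical.

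For each probe set, the response of a genotype was its treated mean minus its control mean, and the interaction was the response of tolerant plants minus the response of susceptible plants. All values are on the log2 scale, where a difference of 1 is a doubling. A positive interaction means that the tolerant response was the higher of both, whether because the transcript rose further or because it fell less. The members were 10038 of the 10209 probe sets on the array, that is, all except 108 control and 63 reporter probe sets. A name could be given to 411 genes through 459 of these probe sets. A difference was called where its adjusted p in a limma fit to all 12 arrays lay under 0.05.

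Drying soil makes leaves produce abscisic acid, a hormone that closes stomata and induces protective proteins such as dehydrins, while growth and photosynthesis are turned down. Leaves also hold a separate set of pathogenesis-related (PR) proteins, secreted chitinases, glucanases, PR-1 proteins and proteases that accumulate after infection or wounding and act on microbes outside the cell. Genotypes that differ in how they meet water shortage can differ in any of these programmes, and an interaction measures that difference directly.

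Technical controls differed between the genotypes. Reporter probe sets, which detect no tomato transcript and serve here as background, had a median of 4.06 to 4.80 on tolerant treated and 3.92 to 4.25 on tolerant control arrays, against 3.09 to 3.12 on susceptible treated and 2.98 to 3.13 on susceptible control arrays. The bioB spike-in averaged 11.44 and 10.84 on tolerant treated and control arrays, against 5.97 and 5.75 on susceptible ones. The difference between 3' and 5' control probe sets, a measure of RNA integrity, averaged 1.75 and 2.87 on tolerant treated and control arrays, against 0.653 and 1.25 on susceptible ones. Replicates also spread more in tolerant plants, with a median SD over probe sets of 0.391 and 0.303 in treated and control plants, against 0.0741 and 0.0852 in susceptible plants. The limma fit uses 1 spread per probe set for all 4 groups. A group is described as within the reporter range where at least 2 of its 3 arrays did not exceed the level that 95% of reporter probe sets stay under on the same array. Its difference is then given as a bound ("at least", or "or lower"), with dim arrays raised to that level, and the adjusted p beside it is that of the measured difference. Where such a range leaves a difference without a bound, the measured value is given and said to have none.

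The interaction was called for 3760 of the 10038 probe sets, which is 37.5%. It was positive for 1908 of them (19.0%) and negative for 1852 (18.4%), and 4629 probe sets had an unadjusted p under 0.05. The median size among those called was 1.32, with 2533 of at least 1, 907 of at least 2 and 106 of at least 4. Over all probe sets the median interaction was 0.04. The responses behind these interactions were called for 5104 probe sets in tolerant plants (50.8%, with 2763 up, 27.5%, and 2341 down). In susceptible plants they were called for 4328 (43.1%, with 2333 up, 23.2%, and 1995 down). Array weights estimated per genotype changed these totals to 3386 and 7411. Which genotype had more called responses therefore depends on how the unequal spread is treated. All treated replicates lay on 1 side of all control replicates for 48.4% of probe sets in tolerant and 77.4% in susceptible plants. Across the 10038 probe sets the responses of the 2 genotypes, which share no arrays, had a Pearson correlation of 0.487, given as a description because genes are not independent replicates.

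For most called interactions a response was called in 1 genotype alone. Of the 3760, 1301 (34.6%) had a called response in tolerant plants alone, 693 up and 608 down. Another 920 (24.5%) had one in susceptible plants alone, 540 up and 380 down. Both genotypes moved in the same direction by different amounts in 898 (23.9%), of which 442 moved further in tolerant and 456 further in susceptible plants. Opposite responses, both called, were found in 561, which is 5.59% of all probe sets tested. Tolerant plants were the ones that rose in 295 of these and the ones that fell in 266. Both responses reached a size of at least 1 in 126 of the opposite probe sets, 59 of which rose and 67 of which fell in tolerant plants. For 80 probe sets with a called interaction neither response was called on its own. The sorting into these classes depends on how the unequal spread of the genotypes is treated. With array weights estimated per genotype 587 probe sets were opposite, of which 322 were among the 561. The same weights gave fewer called responses in tolerant than in susceptible plants (3386 against 7411). The counts for a single genotype therefore rest on the shared spread.

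**Figure D1:**
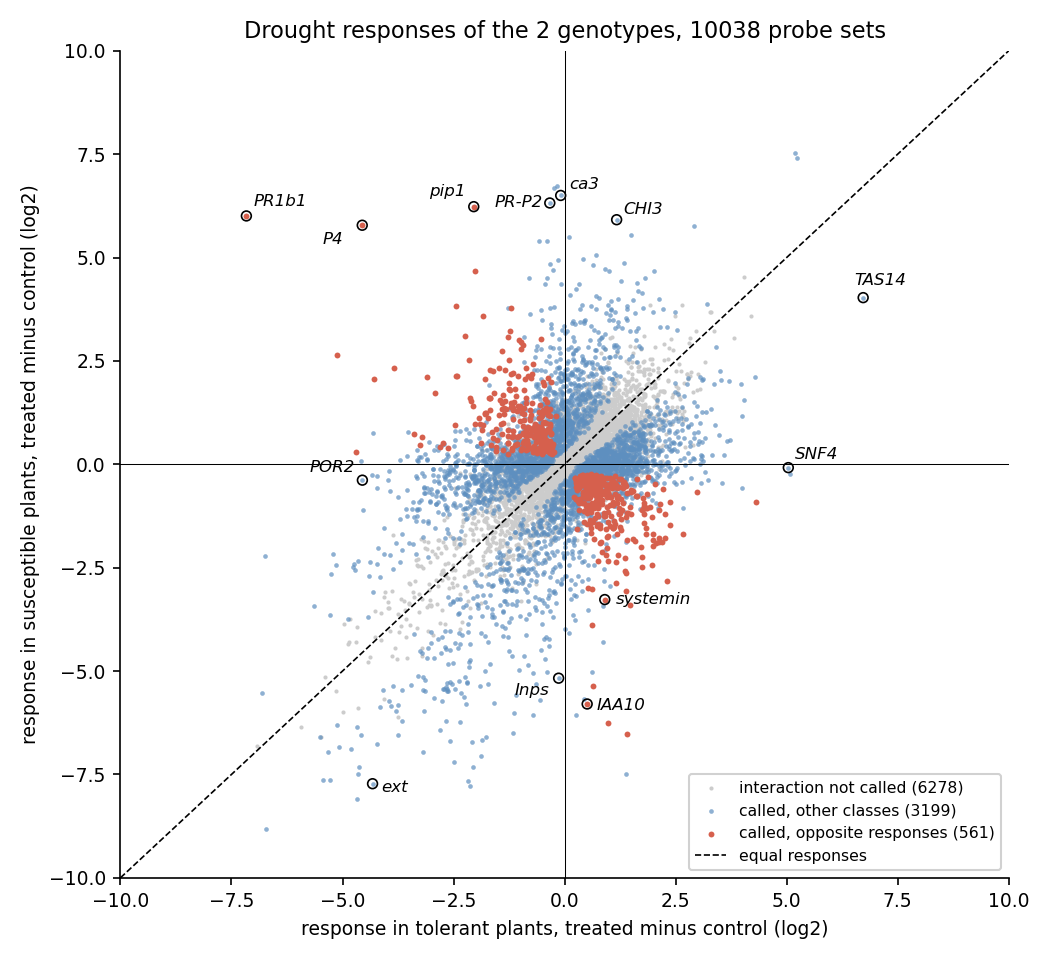
Response of each of the 10038 probe sets in tolerant plants (horizontal axis) and in susceptible plants (vertical axis), both treated minus control in log2. Grey points had no called interaction, blue points had one, red points are the 561 with opposite called responses, the dashed line marks equal responses, and circled genes are named in the text. PR1b1 and P4 lie at the upper left, SNF4 on the right near a susceptible response of 0, and IAA10 and Inps at the bottom near a tolerant response of 0.

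Names came only from tables in which the authors listed probe sets, per the file headers, by a significant genotype by treatment term and a fold change of at least 2 in either genotype. The drought table therefore chose 299 of the 411 named genes on the very difference described here, and 273 of those 299 (91.3%) were called. Of the 112 genes named from the heat table alone, 25 (22.3%) were called, 16 with a positive and 9 with a negative interaction. The share was much the same, 22.5% (1763 of 7823), over all probe sets that the drought table does not list. Counts within the gene lists below are descriptions of these named genes, and they are no independent evidence of a direction.

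Genes for PR proteins had the most negative interactions among named genes, and several changed in opposite directions in the 2 genotypes. The PR-1 proteins, glucanases, chitinases with PR-4, and PR-5 proteins gave 16 genes, each counted on a single probe set. This count leaves out the proteases described further on. A called negative interaction was found for 12 and a called positive one for none, against 18.4% and 19.0% of all probe sets. The median of the 16 was -3.57 against 0.04 over all probe sets. The 12 include PR-P2, whose other probe sets had called positive interactions. In susceptible plants 13 of the 16 rose and 1 fell, against 23.2% and 19.9% of all probe sets. In tolerant plants 4 rose and 9 fell, against 27.5% and 23.3%. The opposite class, 5.59% of all probe sets, held 7 of the 16 genes. PR-5 is counted among the 13 and the 7, though both of its susceptible groups lay within the reporter range. The RNA integrity measure above also differed between treated and control arrays. With it as a covariate the count stayed at 12 negative and none positive, with a median of -3.45. That fit learns from the spread of the measure within groups alone. The spread was widest in tolerant controls (SD 0.911, against 0.0406 to 0.137 in the other groups), so the adjustment rests mainly on those arrays. The part of RNA integrity in these differences was not tested. In whole leaves, fewer cells of a type and less RNA per cell cannot be told apart for these or any other genes.

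PR1b1, a PR-1 protein of the secreted family used as a marker of the salicylic acid response, had the most negative measured interaction of all named genes. It read 4.94, 3.38 and 2.73 on tolerant treated arrays, all within the reporter range, against 10.74, 10.85 and 10.95 on tolerant control arrays. It read 10.77, 10.78 and 10.77 on susceptible treated arrays, against 3.68, 4.27 and 6.35 on susceptible control arrays, of which 2 lay within the reporter range. Treated and control arrays did not overlap in either genotype, and the order was reversed between them. The response was -4.66 or lower in tolerant plants (adjusted p = 1.32e-05) and at least 5.77 in susceptible plants (adjusted p = 4.95e-05). The measured interaction was -13.17 ± 0.95 (SE), with a bound of -10.43 or lower (adjusted p = 6.49e-06).

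P4, another PR-1 protein, had the same layout. Its levels were 4.18, 5.02 and 3.76 on tolerant treated arrays, against 9.02, 8.80 and 8.81 on tolerant control arrays. In susceptible plants they were 8.86, 8.86 and 9.12 on treated arrays, against 3.19, 3.12 and 3.19 on control arrays. The dim group of each genotype lay within the reporter range on all 3 arrays, so both responses are bounds, -2.68 or lower and at least 4.66. The interaction was -7.34 or lower (adjusted p = 7.73e-08). PR-1a1, the remaining PR-1 gene, had a smaller one of -2.23 or lower (adjusted p = 0.000137).

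The genes of secreted proteases repeated this pattern in part. pip1, a cysteine protease of the leaf apoplast that Phytophthora inhibits, read 7.28, 6.46 and 5.30 on tolerant treated arrays, against 8.96, 8.72 and 7.48 on tolerant control arrays. In susceptible plants it read 11.22, 11.22 and 11.23 on treated arrays, against 5.00, 5.12 and 4.85 on control arrays. The tolerant groups lay close to each other without overlapping, while the susceptible groups lay far apart. Its interaction was -8.27 ± 0.68 (adjusted p = 1.44e-05), made of -2.05 ± 0.48 in tolerant and 6.23 ± 0.48 in susceptible plants. P69B, a subtilisin-like protease, had levels of 4.11, 4.78 and 4.22 on tolerant treated arrays, against 6.95, 7.08 and 6.44 on tolerant control arrays. Its levels were 7.97, 7.95 and 8.01 on susceptible treated arrays, against 4.01, 4.05 and 4.35 on susceptible control arrays. The interaction was -4.27 or lower (adjusted p = 4.52e-07).

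Among 13 protease genes as a whole the direction was divided, with 5 positive, 5 negative and 3 not called. The shares over all probe sets were 19.0% positive and 18.4% negative. The subtilases SBT1 and sbt4a were also in the opposite class, at -2.89 or lower and -1.47 or lower. A second sbt4a probe set was measured lower in both genotypes, with an interaction of -0.68 or lower (adjusted p = 0.0442). SBT2, a further subtilase, fell in both genotypes, by 3.02 in tolerant and by 4.06 in susceptible plants, which gave a positive interaction of 1.04 ± 0.25 (adjusted p = 0.00806). The aminopeptidase lap2 rose in both, by 2.68 ± 0.08 in tolerant and by 1.66 ± 0.08 in susceptible plants, with an interaction of 1.03 ± 0.12 (adjusted p = 0.000122).

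Glucanases and chitinases cut the wall polymers of fungi. The beta-1,3-glucanase LOC543986 read 3.92, 4.33 and 6.44 on tolerant treated arrays, against 8.57, 8.60 and 9.03 on tolerant control arrays. It read 5.56, 5.54 and 5.68 on susceptible treated arrays, against 3.20, 3.34 and 3.26 on susceptible control arrays. The first and the last of these groups lay within the reporter range, and the interaction was -3.85 or lower (adjusted p = 0.000134). GluB, another glucanase, fell by 0.94 in tolerant plants and rose by 2.89 ± 0.14 in susceptible plants, an interaction of -3.83 ± 0.20 (adjusted p = 9.31e-07).

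CHI3, a chitinase, rose in both genotypes. It stood at 12.19, 12.17 and 12.18 on tolerant treated arrays, against 11.18, 10.84 and 11.01 on tolerant control arrays. It stood at 13.34, 13.45 and 13.50 on susceptible treated arrays, against 7.51, 7.68 and 7.35 on susceptible control arrays. The susceptible rise of 5.91 ± 0.12 exceeded the tolerant rise of 1.17 ± 0.12 by 4.74 ± 0.17 (adjusted p = 7.73e-08), and tolerant plants already had a high level without stress. CHI17, another chitinase, rose by 1.95 ± 0.10 in tolerant and by 1.84 ± 0.10 in susceptible plants, and its interaction of 0.10 ± 0.14 was not called (adjusted p = 0.617).

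PR-P2, a protein of the PR-4 family, read 7.53, 7.22 and 7.17 on tolerant treated arrays, against 7.51, 7.79 and 7.62 on tolerant control arrays. In susceptible plants it read 11.53, 11.51 and 11.58 on treated arrays, against 5.28, 5.05 and 5.33 on control arrays. The tolerant groups overlapped and the susceptible groups did not, and the interaction was -6.65 ± 0.18 (adjusted p = 1.98e-08). This value belongs to 1 of 3 probe sets that carry the name. The remaining 2 had called positive interactions of 1.53 ± 0.19 and 1.13 ± 0.26, so no single direction can be given for the gene. Of 40 genes with several probe sets, 5 had probe sets called in both directions, namely ASR1, LOC543954, PDH, PR-P2 and WRKY2.

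Among PR-5 proteins, which resemble thaumatin, NP24-I rose by 0.70 ± 0.13 in tolerant and by 4.06 ± 0.13 in susceptible plants, an interaction of -3.36 ± 0.18 (adjusted p = 1.18e-06). PR-5 behaved otherwise. It fell in tolerant plants, with a level of 6.44 ± 0.38 in treated against 9.66 ± 0.10 in control plants (SD, n = 3 each). In susceptible plants both groups lay within the reporter range, so its measured interaction of -3.87 has no bound.

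**Figure D2:**
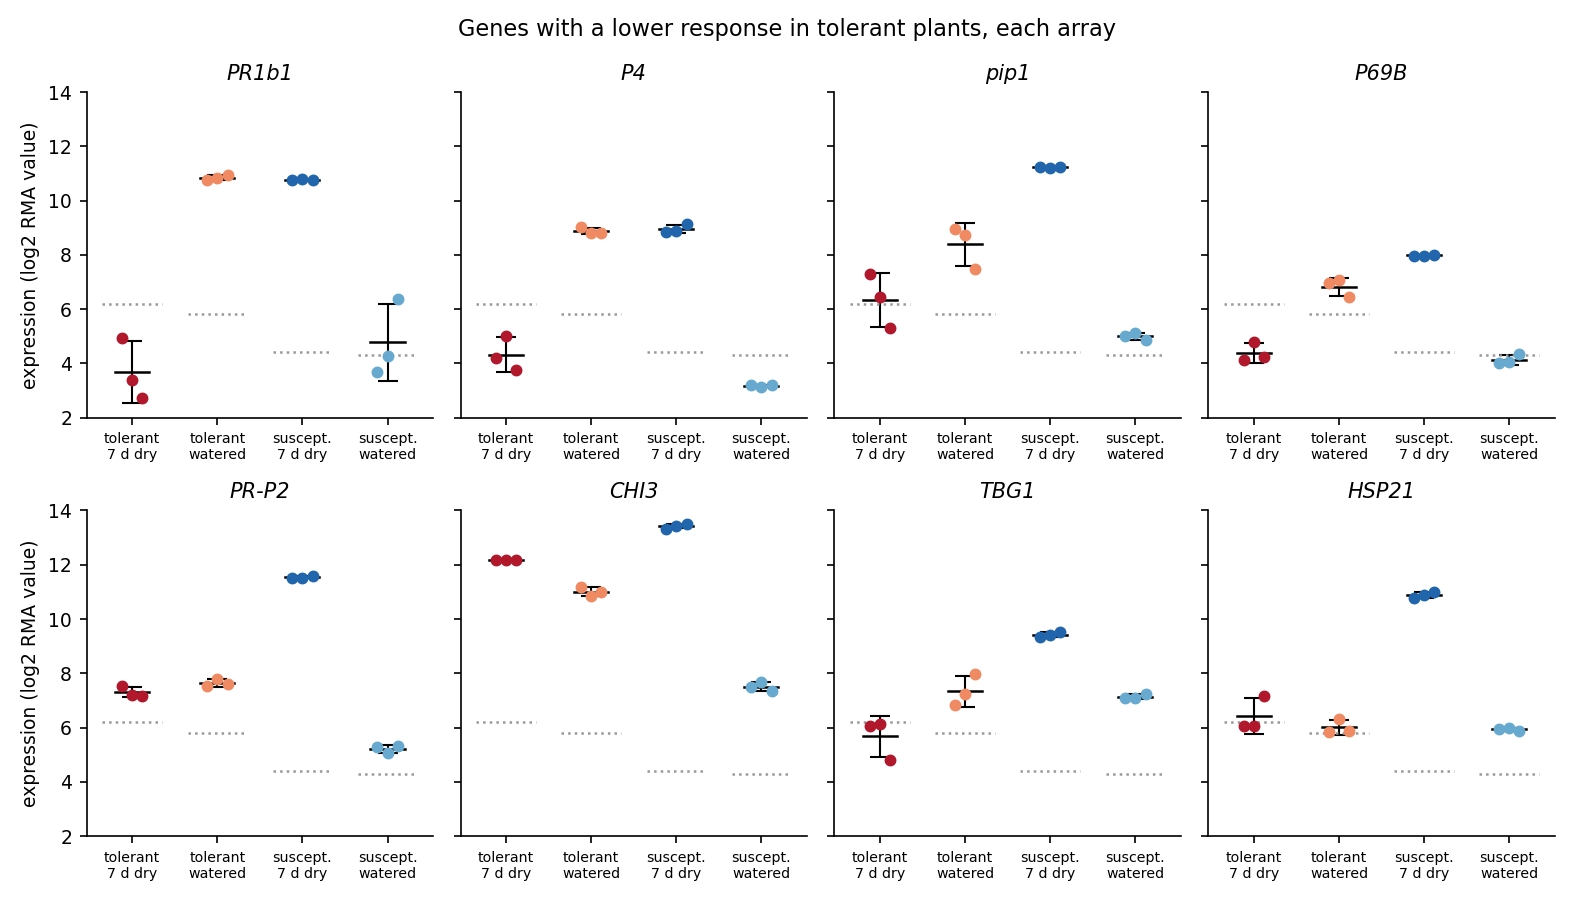
Levels (log2) of 8 genes with a negative interaction on each of the 12 arrays. Points are arrays, black bars the mean and SD of 3 arrays, and the dotted line the level under which 95% of reporter probe sets lie. PR1b1, P4, pip1, P69B and TBG1 are high in tolerant controls and in treated susceptible plants, whereas PR-P2 and HSP21 differ mainly by a rise in susceptible plants.

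Several genes outside the PR group shared the large rise in susceptible plants with little or no response in tolerant plants. For ca3, a carbonic anhydrase, levels were 8.29, 7.27 and 5.57 on tolerant treated arrays, against 6.65, 7.64 and 7.10 on tolerant control arrays, and these overlapped. On susceptible arrays ca3 read 11.33, 11.52 and 11.49 in treated plants, against 5.35, 4.94 and 4.55 in controls. Its interaction was -6.59 ± 0.80 (adjusted p = 0.000155). The other named carbonic anhydrase, ca2, went the other way, with an interaction of 2.08 ± 0.12 (adjusted p = 1.9e-06): it fell by 1.60 in tolerant and by 3.68 in susceptible plants.

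The ribonuclease rnale read 10.12, 10.20 and 10.14 on susceptible treated arrays, against 4.83, 4.60 and 4.54 on susceptible control arrays. Tolerant plants had 5.87, 5.93 and 4.07 on treated arrays, against 4.51, 5.59 and 5.49 on control arrays, and both groups lay within the reporter range. The calmodulin probe set CALM1LE, for a calcium sensor, was laid out alike. It stood at 5.35, 5.39 and 5.66 on tolerant treated and at 5.49, 5.90 and 5.48 on tolerant control arrays, within the reporter range, and at 10.39, 10.53 and 10.47 on susceptible treated against 5.43, 5.53 and 5.61 on susceptible control arrays. The measured interactions were -5.40 for rnale and -5.10 for CALM1LE, and neither has a bound, since a tolerant response below background would not have been seen.

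HT2, a carrier that moves hexoses into cells, was in the opposite class. Its levels were 6.69, 5.31 and 6.93 on tolerant treated arrays, against 7.54, 7.87 and 7.23 on tolerant control arrays. Susceptible arrays had 10.69, 10.58 and 10.49 in treated plants, against 7.46, 7.26 and 7.39 in controls. The interaction of -4.45 ± 0.50 (adjusted p = 0.000104) joined a fall of the tolerant plants by 1.23 to a rise of 3.21 ± 0.36 in susceptible plants. LOC544050, the mitochondrial ADP/ATP carrier, fell by 2.91 in tolerant and rose by 1.73 ± 0.28 in susceptible plants (interaction -4.64 ± 0.40, adjusted p = 1.84e-05). It read 6.71, 6.43 and 5.43 on tolerant treated arrays against 8.94, 8.94 and 9.42 on tolerant controls, and 11.52, 11.64 and 11.67 on susceptible treated arrays against 9.97, 9.84 and 9.84 on susceptible controls.

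Heat shock proteins and other chaperones, which keep proteins folded, did not move as a group. Of 15 genes 4 had a called positive and 6 a called negative interaction, against 19.0% and 18.4% of all probe sets. The chloroplast small heat shock protein HSP21 had the most negative one, -4.55 ± 0.39 (adjusted p = 1.8e-05). It read 6.04, 6.04 and 7.17 on tolerant treated arrays, against 5.82, 6.32 and 5.89 on tolerant control arrays, and 10.79, 10.90 and 10.98 on susceptible treated arrays, against 5.95, 5.97 and 5.87 on susceptible control arrays. The tolerant groups overlapped, so the difference rests on the susceptible rise of 4.96 ± 0.27. The cytosolic HSP17.4 differed in the other direction: it fell by 0.99 in tolerant and by 2.74 in susceptible plants (interaction 1.75 ± 0.38, adjusted p = 0.00478). The chaperone LeHsp90-1 fell by 2.74 in tolerant plants and showed 0.08 ± 0.23 in susceptible plants (interaction -2.81 ± 0.32, adjusted p = 0.000107). The chloroplast co-chaperonin leCpn21 fell by 2.63 in tolerant plants and rose by 0.40 ± 0.08 in susceptible plants (interaction -3.03 ± 0.12, adjusted p = 1.41e-07).

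By measured value the 5 highest positive interactions among named genes were those of IAA10, TPP3, Cel1, SNF4 and Inps. SNF4 differed by a rise in tolerant plants. The other four each joined a large fall in susceptible plants to a tolerant response between -0.13 and 0.63. IAA10 belongs to the Aux/IAA proteins, short-lived repressors of auxin-responsive genes that auxin marks for destruction. Its levels were 9.69, 9.15 and 9.56 on tolerant treated arrays, against 8.94, 9.05 and 8.88 on tolerant control arrays. They were 4.47, 4.30 and 4.20 on susceptible treated arrays, 2 of them within the reporter range, against 10.11, 10.15 and 10.10 on susceptible control arrays. The tolerant response was 0.51 ± 0.14 and the susceptible response -5.72 or lower, so the interaction was at least 6.22 (adjusted p = 4.02e-08). A second probe set for IAA10 gave at least 1.82 (adjusted p = 6.96e-05).

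All 8 named Aux/IAA genes had a called positive interaction, against 19.0% of all probe sets. The median of the 8 genes was 2.27 against 0.04 over all probe sets. Every one of them came from the drought table. In susceptible plants 5 fell and none rose, against 19.9% and 23.2% of all probe sets. In tolerant plants 4 rose and 1 fell, against 27.5% and 23.3%. IAA7 read 8.16, 9.11 and 8.66 on tolerant treated arrays, against 8.17, 8.42 and 8.78 on tolerant control arrays, which overlapped. It read 5.48, 5.55 and 5.66 on susceptible treated arrays, against 9.20, 9.25 and 9.19 on susceptible control arrays, an interaction of 3.83 ± 0.31 (adjusted p = 1.46e-05). IAA1 was similar, at 2.47 ± 0.26. IAA8 instead rose by 1.86 ± 0.22 in tolerant plants and showed -0.11 ± 0.22 in susceptible plants (interaction 1.97 ± 0.31, adjusted p = 0.000713). IAA9 fell in both genotypes, by 1.89 in tolerant and by 2.65 in susceptible plants.

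Not every Aux/IAA gene had a measurable size. IAA11 read 4.08, 6.94 and 4.58 on tolerant treated arrays, against 4.99, 6.09 and 5.85 on tolerant control arrays, both within the reporter range. It read 3.23, 3.25 and 3.31 on susceptible treated arrays, against 8.08, 8.01 and 7.80 on susceptible control arrays, so its measured 4.26 has no bound. IAA5 lay within that range in all 4 groups, and its call was lost when values were raised to background (adjusted p = 0.535). With array weights per genotype, IAA3 was the 1 gene of the 8 not called (adjusted p = 0.0734). Of 4 other named auxin genes none had a positive call: ARF2, an auxin response factor, and ERabp1, an auxin-binding protein, had negative interactions of -1.60 ± 0.22 and -2.19 ± 0.38 (adjusted p = 0.000348 and 0.00148). The shares over all probe sets were 19.0% positive and 18.4% negative.

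The SNF1-related kinase complex is a sensor of cell energy status. Over all probe sets 19.0% were called positive. The complex had called positive interactions for all 3 named genes, 2 of them under every alternative tried. SNF4, its regulatory gamma subunit, read 9.33, 9.30 and 9.50 on tolerant treated arrays, against 4.42, 3.76 and 4.83 on tolerant control arrays, which lay within the reporter range. It read 5.48, 5.79 and 5.41 on susceptible treated arrays, against 5.70, 5.80 and 5.42 on susceptible control arrays. Tolerant plants rose by at least 3.58 while the susceptible groups overlapped, and the interaction was at least 3.66 (adjusted p = 3.77e-06). GAL83, the anchoring beta subunit, rose by 1.11 ± 0.08 in tolerant plants and fell by 1.51 in susceptible plants (interaction 2.63 ± 0.12, adjusted p = 3.61e-07). The kinase LOC543870 rose in both, and its smaller difference of 0.63 ± 0.21 (adjusted p = 0.0381) lost its call under 13 of the 24 alternatives tried, with adjusted p up to 0.106.

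Genes of abscisic acid and water deficit also had positive interactions, 6 of 8 called and none negative, with a median of 2.38. Over all probe sets 19.0% were called positive and 18.4% negative. Most of the 8 genes rose in both genotypes: 7 rose in tolerant plants, and 5 rose and 1 fell in susceptible plants. Of all probe sets 23.2% rose and 19.9% fell in susceptible plants. The dehydrin TAS14, a protein of drying tissue, had a level of 11.41 ± 0.13 in treated tolerant plants, against 4.69 ± 0.35 in tolerant controls, within the reporter range. In susceptible plants TAS14 had 12.23 ± 0.10 in treated plants, against 8.20 ± 0.07 in controls (SD, n = 3 each). It rose by at least 5.61 in tolerant and by 4.03 ± 0.16 in susceptible plants, an interaction of at least 1.58 (adjusted p = 1.8e-05). Levels in control plants were further apart between the genotypes than levels in treated plants.

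NCED1, the enzyme of the committed step of abscisic acid synthesis, differed by a loss in susceptible plants. Its level was 9.11 ± 0.21 in treated and 8.99 ± 0.20 in control tolerant plants, against 6.90 ± 0.16 in treated and 9.91 ± 0.12 in control susceptible plants. The interaction was 3.13 ± 0.21 (adjusted p = 4.09e-06). LeAREB, a transcription factor of the abscisic acid response, rose by 2.55 ± 0.18 in tolerant and by 1.06 ± 0.18 in susceptible plants, a difference of 1.49 ± 0.26 (adjusted p = 0.00143). The lipid transfer protein TSW12 rose by 3.06 ± 0.12 in tolerant and by 1.00 ± 0.12 in susceptible plants (interaction 2.06 ± 0.18, adjusted p = 1.84e-05). Its other probe set, also bright, fell by 0.68 in susceptible plants, had no called response in tolerant plants (-0.20) and gave an interaction of 0.48 ± 0.12 (adjusted p = 0.00955).

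ASR1, named for abscisic acid, stress and ripening, rose by 3.10 ± 0.28 in tolerant plants and showed 0.21 ± 0.28 in susceptible plants, an interaction of 2.89 ± 0.40 (adjusted p = 0.000347). Its other probe set gave -0.75 ± 0.20 (adjusted p = 0.0125). For 2 genes of the list the difference was not called: the protein phosphatase DIG3, which rose by 2.82 ± 0.39 in tolerant and by 2.14 ± 0.39 in susceptible plants, and the transcription factor DREB1. The 7 genes that rose in tolerant plants compare with 27.5% of all probe sets that did so.

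**Figure D3:**
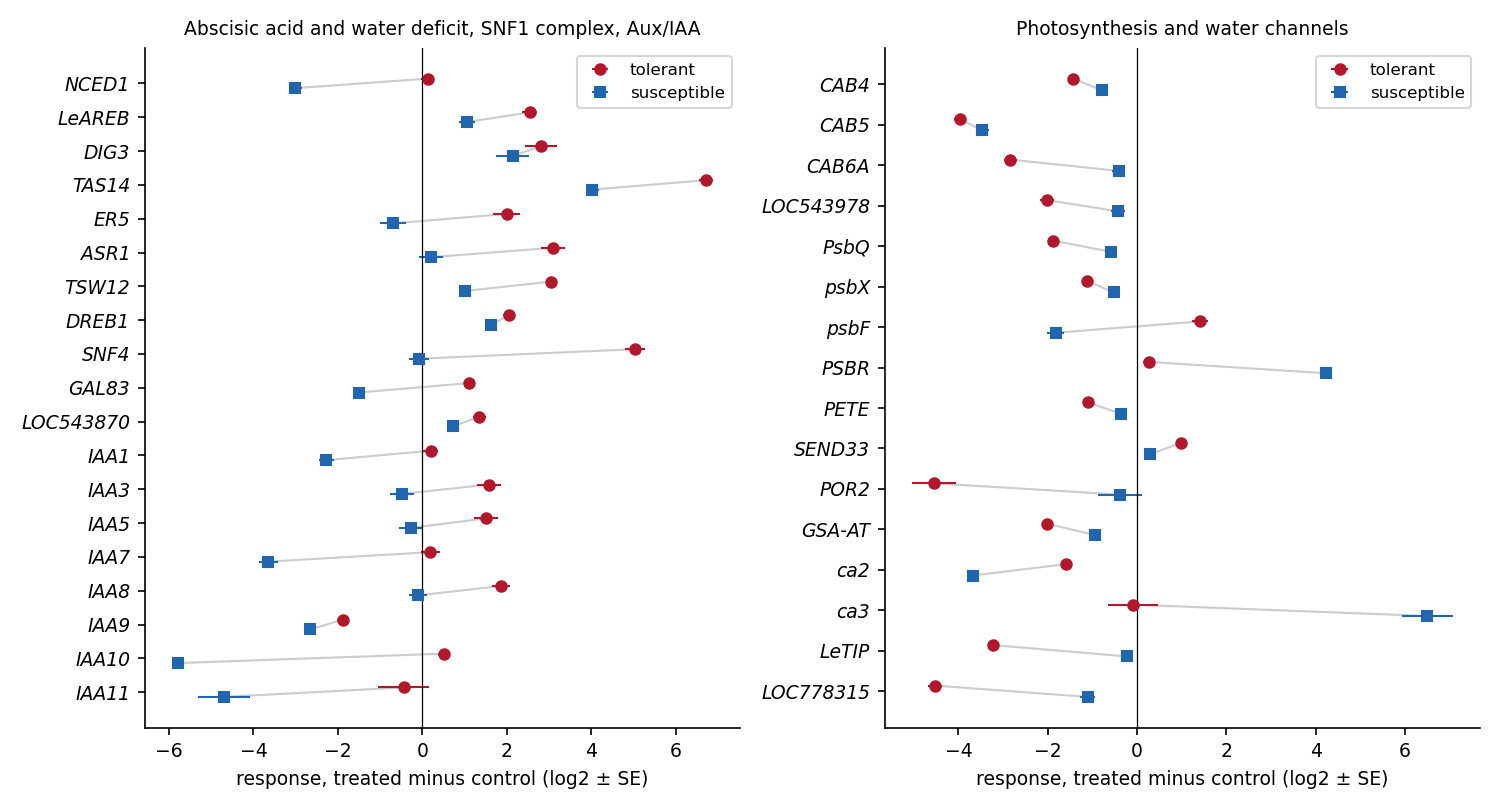
Response, treated minus control in log2, of tolerant plants (red circles) and susceptible plants (blue squares) for each gene of 3 regulatory lists (left) and of the photosynthesis, carbonic anhydrase and water channel genes (right). Bars are the SE of the limma fit, drawn from measured values without bounds. Red lies to the right of blue for all 8 Aux/IAA genes, and to the left of blue for both water channels.

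Jasmonate is a wound hormone made from membrane lipids, and systemin is the tomato peptide that triggers its synthesis. The prosystemin gene (systemin) read 12.43, 12.37 and 12.38 on tolerant treated arrays, against 11.43, 11.51 and 11.53 on tolerant control arrays. It read 7.16, 6.92 and 6.97 on susceptible treated arrays, against 10.29, 10.26 and 10.30 on susceptible control arrays. The groups did not overlap in either genotype, and the order was opposite: a rise of 0.90 ± 0.09 in tolerant plants and a fall of the susceptible plants by 3.27. The interaction was 4.18 ± 0.13 (adjusted p = 4.02e-08).

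The enzymes of jasmonate and oxylipin synthesis were divided. Of the 13 genes of that list, systemin included, 6 had a called positive and 4 a called negative interaction. The shares over all probe sets were 19.0% and 18.4%. The lipoxygenase TomloxE rose by 0.35 ± 0.11 in tolerant and by 3.76 ± 0.11 in susceptible plants (interaction -3.41 ± 0.16, adjusted p = 4.9e-07). The allene oxide synthase aos, which starts the jasmonate branch, read 7.17, 4.89 and 5.72 on tolerant treated arrays, against 6.67, 5.66 and 6.47 on tolerant control arrays. It read 6.31, 6.27 and 6.20 on susceptible treated arrays, against 10.48, 10.45 and 10.55 on susceptible control arrays. The susceptible fall by 4.23 was a measured value, but 2 tolerant treated arrays lay within the reporter range, and the interaction of 3.89 has no bound. HPL, a hydroperoxide lyase that makes leaf aldehydes, fell in tolerant plants alone (interaction -2.37 ± 0.24, adjusted p = 5.27e-05).

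Ethylene genes gave no common direction. Among 6 synthesis genes ACO1, an ACC oxidase that makes ethylene, fell by 1.67 in tolerant plants and rose by 1.60 ± 0.20 in susceptible plants, and ACO6, another ACC oxidase, did the reverse with a rise of 0.74 ± 0.13 and a fall of the susceptible plants by 1.48. Their interactions were -3.27 ± 0.28 and 2.22 ± 0.18 (adjusted p = 1.91e-05 and 1.28e-05). Among 14 receptor and response genes 4 were positive, 3 negative and 7 not called, where 19.0% of all probe sets were positive and 18.4% negative. The receptor Never-ripe rose by 1.45 ± 0.12 in tolerant plants alone (interaction 1.60 ± 0.17, adjusted p = 8.2e-05), whereas the receptor ETR4 rose more in susceptible plants (interaction -0.72 ± 0.16, adjusted p = 0.00473).

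Inositol and sugar metabolism held 1 of the largest positive interactions. Inps, the enzyme that makes inositol phosphate from glucose phosphate, read 10.95, 10.80 and 10.95 on tolerant treated arrays, against 11.03, 11.06 and 11.02 on tolerant control arrays. It read 6.37, 6.45 and 6.43 on susceptible treated arrays, against 11.54, 11.55 and 11.67 on susceptible control arrays. The tolerant response of -0.13 ± 0.09 was not called, while susceptible plants fell by 5.17, an interaction of 5.04 ± 0.12 (adjusted p = 1.6e-08). IMP1, a phosphatase that releases inositol, was in the opposite class with the other sign, at -2.29 or lower (adjusted p = 0.00381). INS-1P, another gene of the sugar, starch and inositol list, rose by 1.04 in susceptible plants and showed -0.15 in tolerant plants. Its interaction was -1.19 ± 0.13 (adjusted p = 8.2e-05).

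Of 16 sugar, starch and inositol genes 4 had a called positive and 7 a called negative interaction, against 19.0% and 18.4% of all probe sets. The sucrose-making enzyme sps and the sucrose synthase sus3 rose in both genotypes and further in tolerant plants, by 1.42 ± 0.17 and 0.93 ± 0.13 (adjusted p = 0.000122 and 0.000315). The fructokinase Frk1, the acid invertase Wiv-1 and the beta-amylase bmy3 rose further in susceptible plants or in those alone. Their interactions were -2.42 ± 0.37, -1.93 or lower and -1.17 ± 0.16.

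TPP3, a flower-specific gamma-thionin, a small defence peptide, stood at 12.07, 12.05 and 12.08 on tolerant treated arrays, against 11.44, 11.47 and 11.39 on tolerant control arrays. It stood at 3.82, 3.67 and 3.89 on susceptible treated arrays, within the reporter range, against 9.09, 9.02 and 9.33 on susceptible control arrays. The interaction was at least 5.38 (adjusted p = 1.6e-08), and the gene's title calls it flower-specific, whereas the labels call these samples leaves. CrtR-b2, a beta-carotene hydroxylase of xanthophyll synthesis, was in the opposite class. It read 7.90, 7.90 and 8.98 on tolerant treated arrays, against 6.25, 5.67 and 6.93 on tolerant control arrays, and 5.78, 5.59 and 5.72 on susceptible treated arrays, against 8.13, 8.10 and 8.17 on susceptible control arrays (interaction 4.42 ± 0.48, adjusted p = 7.83e-05).

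**Figure D4:**
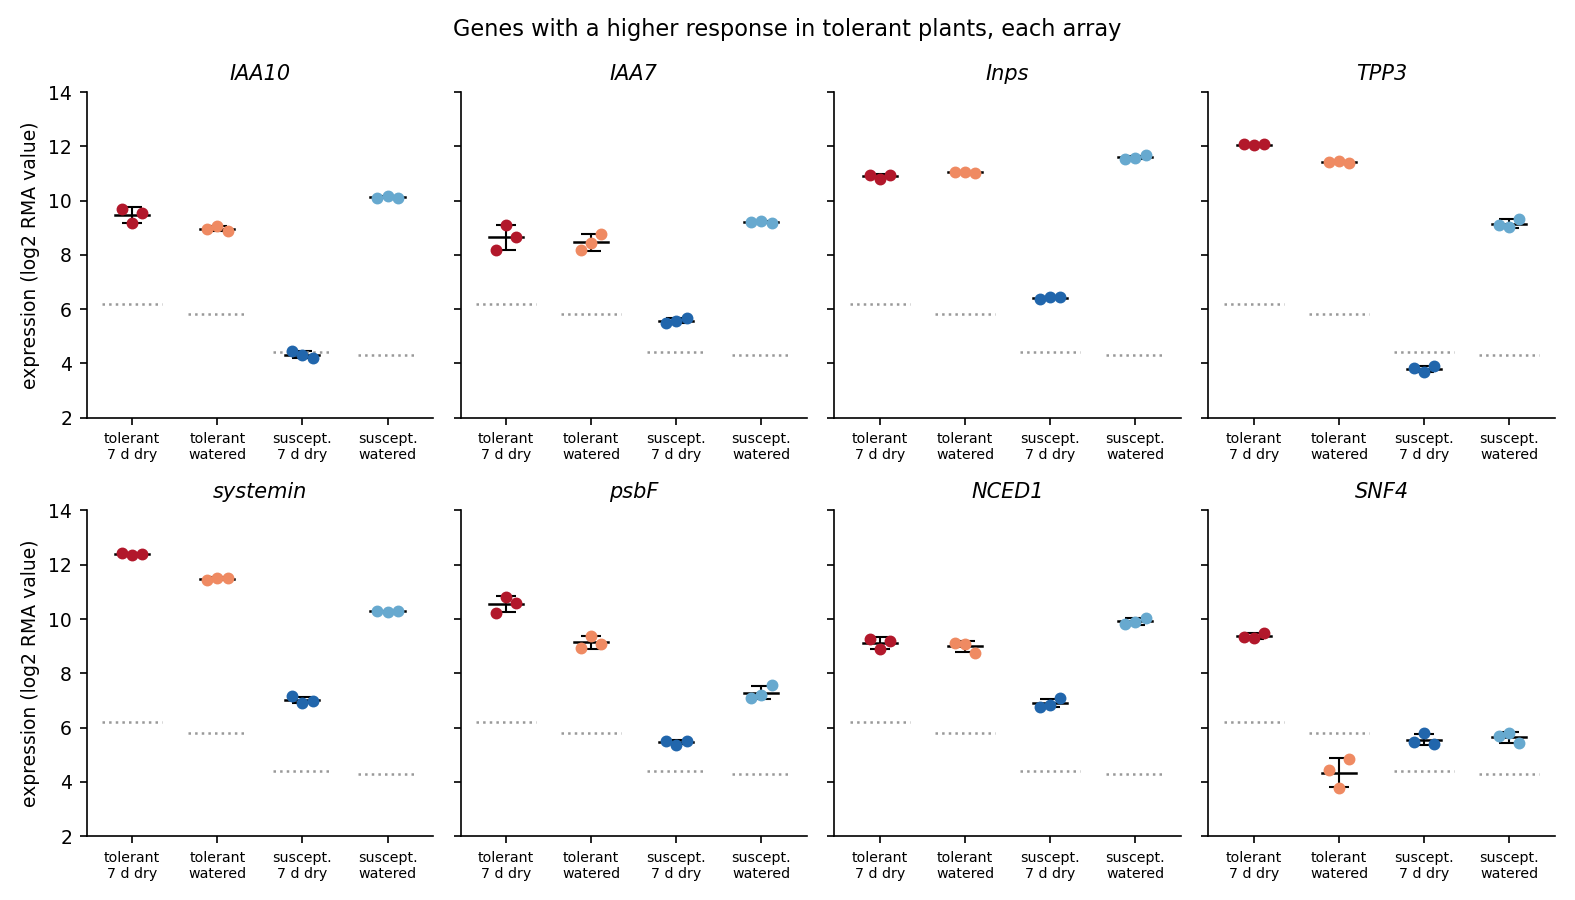
Levels (log2) of 8 genes with a positive interaction on each of the 12 arrays, with the mean and SD of 3 arrays in black and the level under which 95% of reporter probe sets lie as a dotted line. IAA10, IAA7, Inps, TPP3 and NCED1 are low in treated susceptible plants only, systemin and psbF also rise in treated tolerant plants, and SNF4 differs by its rise in tolerant plants.

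Cell wall genes mostly fell under drought in both genotypes, and their interactions ran in both directions. Of 36 genes 29 fell in tolerant and 22 in susceptible plants, against 23.3% and 19.9% of all probe sets. Of their interactions 14 were called positive and 11 negative, against 19.0% and 18.4%. ext, a xyloglucan transferase that cuts and rejoins wall polymers, read 6.07, 6.48 and 6.27 on tolerant treated arrays, against 10.60, 10.56 and 10.63 on tolerant control arrays. It read 4.26, 4.29 and 3.96 on susceptible treated arrays, within the reporter range, against 12.01, 11.86 and 11.81 on susceptible control arrays. Both genotypes fell, the susceptible one further, and the interaction was at least 3.17 (adjusted p = 1.19e-06).

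XTH7, another transferase of this family, fell by 2.36 in tolerant plants and by at least 5.71 in susceptible plants, an interaction of at least 3.35 (adjusted p = 3.58e-07). Its levels were 8.45, 8.16 and 8.62 on tolerant treated arrays against 10.81, 10.78 and 10.72 on tolerant controls, and 3.82, 3.84 and 3.96 on susceptible treated arrays against 10.05, 10.22 and 10.07 on susceptible controls. The expansins LeEXP2 and exp11, which loosen the wall during growth, had the same order, with interactions of at least 2.09 and of 2.71 ± 0.29 (adjusted p = 0.000315 and 7.82e-05). LOC778328, a methionine-rich arabinogalactan protein, did as well. It read 9.50, 8.72 and 8.84 on tolerant treated arrays against 10.95, 9.44 and 10.22 on tolerant controls, and 5.38, 5.69 and 5.79 on susceptible treated arrays against 10.02, 10.40 and 10.37 on susceptible controls (interaction 3.46 ± 0.49, adjusted p = 0.00039).

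The endoglucanase Cel1, which acts on glucan chains of the wall, had no called response in tolerant plants. It read 7.43, 7.91 and 7.57 on tolerant treated arrays, against 7.37, 7.32 and 6.34 on tolerant control arrays, and 4.32, 4.09 and 4.08 on susceptible treated arrays, within the reporter range, against 9.24, 9.09 and 9.23 on susceptible control arrays. Its interaction was at least 5.41 (adjusted p = 2.75e-06). Of 4 beta-galactosidase genes, for enzymes that trim galactose from wall polymers, TBG1, TBG3 and TBG5 had called negative interactions and TBG2 did not. The share called negative over all probe sets was 18.4%. TBG3 had 7.72, 5.17 and 7.78 on tolerant treated arrays, against 9.18, 9.65 and 9.14 on tolerant control arrays, and 10.82, 10.81 and 10.88 on susceptible treated arrays, against 8.69, 8.71 and 8.72 on susceptible control arrays. The interaction was -4.56 ± 0.80 (adjusted p = 0.00146), and that of TBG1 was -3.96 ± 0.51 (adjusted p = 0.000225). Both belonged to the opposite class. TBG5 fell in tolerant plants alone (interaction -2.08 ± 0.43, adjusted p = 0.00404). TBG2 rose in both genotypes, by 1.33 in tolerant and by 1.53 in susceptible plants, and its interaction of -0.20 ± 0.44 was not called (adjusted p = 0.770).

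Most named genes of cell division fell in both genotypes. Of 12 genes for histones and the cell cycle 10 fell in tolerant and 11 in susceptible plants, against 23.3% and 19.9% of all probe sets. Of their interactions 3 were called, all positive, against 37.5% of all probe sets. Of the 12 genes 7 were named from the heat table alone, where 22.3% were called, so the count is not read as particular to cell division. The histone H2B-2 fell by 2.63 in tolerant and by 5.48 in susceptible plants (interaction 2.85 ± 0.30, adjusted p = 7.37e-05). For the histone H4 gene LOC544081 the falls were 4.42 and 4.77, and the interaction of 0.35 ± 0.26 was not called (adjusted p = 0.322).

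**Figure D5:**
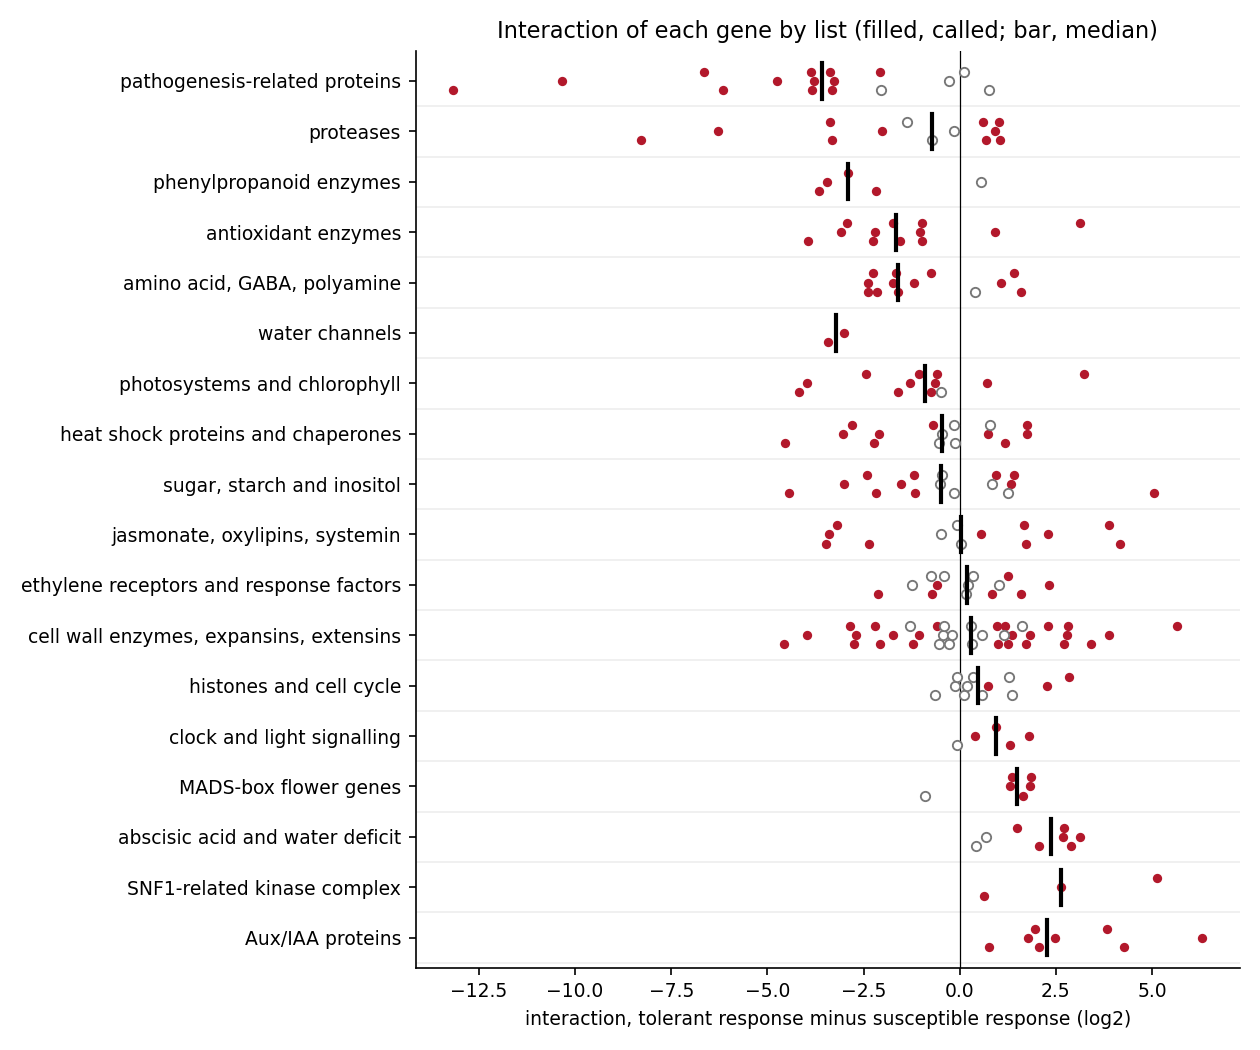
Interaction (log2, measured value) of each named gene in 18 lists, with filled red points for called and open grey points for not called interactions and a black bar at the list's median. Points of the PR proteins reach from -13.17 to 0.76, all 8 Aux/IAA points lie above 0, and the cell wall list spans both sides.

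Most photosynthesis genes fell further in tolerant than in susceptible plants. Of 12 genes for photosystem proteins and chlorophyll synthesis 9 had a called negative and 2 a called positive interaction, with a median of -0.91. All 12 were named in the drought table. Over all probe sets 18.4% were called negative and 19.0% positive. In tolerant plants 9 fell and 2 rose, against 23.3% and 27.5% of all probe sets. In susceptible plants 8 fell and 2 rose, against 19.9% and 23.2%. CAB6A, a chlorophyll-binding antenna protein, had a level of 9.33 ± 0.31 in treated and 12.17 ± 0.01 in control tolerant plants, against 12.51 ± 0.09 in treated and 12.92 ± 0.11 in control susceptible plants. The interaction was -2.43 ± 0.21 (adjusted p = 1.75e-05).

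POR2, which makes chlorophyllide in the light, read 7.31, 5.93 and 4.67 on tolerant treated arrays, against 10.57, 10.46 and 10.54 on tolerant control arrays. It read 11.50, 11.42 and 11.42 on susceptible treated arrays, against 11.85, 11.80 and 11.84 on susceptible control arrays. The tolerant treated arrays differed widely among themselves and 2 lay within the reporter range, and the interaction was -3.40 or lower (adjusted p = 0.00113). The antenna gene CAB5 was an exception: it fell by 3.96 in tolerant and by 3.46 in susceptible plants, and its interaction of -0.50 ± 0.20 was not called (adjusted p = 0.0745).

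PSBR, a photosystem II polypeptide, showed 0.26 ± 0.13 in tolerant plants and rose by 4.23 ± 0.13 in susceptible plants (interaction -3.97 ± 0.18, adjusted p = 4.52e-07). psbF, a subunit of cytochrome b559 that is encoded in the chloroplast, was in the opposite class. It read 10.22, 10.81 and 10.60 on tolerant treated arrays, against 8.95, 9.39 and 9.07 on tolerant control arrays, and 5.50, 5.37 and 5.50 on susceptible treated arrays, against 7.09, 7.19 and 7.56 on susceptible control arrays. The interaction was 3.23 ± 0.26 (adjusted p = 1.35e-05).

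Both genes named as water channels had called negative interactions, against 18.4% of all probe sets. Both were named in the drought table, where 91.3% of named genes were called. LOC778315, titled similar to aquaporin, had a level of 6.97 ± 0.37 in treated and 11.50 ± 0.06 in control tolerant plants, against 11.39 ± 0.08 in treated and 12.50 ± 0.07 in control susceptible plants (interaction -3.42 ± 0.23, adjusted p = 3.87e-06). The deposited name of this probe set is uncertain, since probe sets of the same cluster number on the array carry the name WRKY2, a transcription factor, or no name. LeTIP, a tonoplast channel, fell in tolerant plants by at least 2.79 and showed -0.22 ± 0.12 in susceptible plants, an interaction of -2.57 or lower (adjusted p = 1.53e-06).

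Antioxidant enzymes remove peroxide and superoxide. All 12 named genes had a called interaction, 10 negative and 2 positive, with a median of -1.65. Over all probe sets 37.5% were called and 18.4% were called negative. Of the 12 genes 1 was named from the heat table alone, and 91.3% of the genes named in the drought table were called. In susceptible plants 8 rose and 2 fell, against 23.2% and 19.9% of all probe sets. In tolerant plants 1 rose and 7 fell, against 27.5% and 23.3%. FESOD, an iron superoxide dismutase, fell by 0.89 in tolerant and rose by 2.05 ± 0.13 in susceptible plants (interaction -2.94 ± 0.19, adjusted p = 3.16e-06). The catalase cat1 had a level of 12.53 ± 0.06 in treated and 12.35 ± 0.01 in control tolerant plants, against 13.83 ± 0.12 in treated and 12.60 ± 0.05 in control susceptible plants, an interaction of -1.04 ± 0.13 (adjusted p = 0.000165). The cytosolic ascorbate peroxidase APX1 fell in tolerant plants by 1.39 (interaction -1.74 ± 0.12, adjusted p = 4.11e-06). The positive exceptions were DHAR1, a dehydroascorbate reductase, at 0.92 ± 0.30, and BI-GST/GPX, a glutathione transferase and peroxidase, at 3.13 ± 0.19 (adjusted p = 0.0329 and 1.9e-06). The call for DHAR1 was lost under 14 of the 24 alternatives tried.

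Enzymes of amino acids, GABA and polyamines had 9 called negative and 3 called positive interactions among 13 genes, with a median of -1.60. Over all probe sets these shares were 18.4% and 19.0%. The threonine deaminase Td rose by 1.75 ± 0.14 in tolerant and by 4.15 ± 0.14 in susceptible plants (interaction -2.40 ± 0.20, adjusted p = 1.66e-05). The glutamate dehydrogenase legdh1 fell by 1.89 in tolerant plants and rose by 0.50 ± 0.09 in susceptible plants (interaction -2.40 ± 0.12, adjusted p = 7.04e-07). Of both arginine decarboxylases, which start polyamine synthesis, ADC had -2.16 ± 0.18 and adc1 1.07 ± 0.35 (adjusted p = 1.63e-05 and 0.0337), the second of which lost its call under 10 of the 24 alternatives. The proline-degrading enzyme PDH rose further in tolerant plants on 2 probe sets, with interactions of 1.58 ± 0.16 and 1.91 ± 0.24. Its remaining probe set gave -2.79 ± 0.37.

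Of 5 phenylpropanoid enzymes, some of which make lignin and wall-bound phenolics, 4 had a called negative and none a called positive interaction (median -2.92). Over all probe sets these shares were 18.4% and 19.0%. The remaining gene, CHS2, had an interaction of 0.56 ± 0.32 that was not called (adjusted p = 0.199). THT7-1, which couples tyramine to cinnamic acids, gave -1.76 or lower (adjusted p = 9.26e-05), and the lignin enzyme CCR1 gave -2.92 ± 0.31 with a fall of the tolerant plants by 0.73 and a rise of 2.19 ± 0.22 in susceptible plants (adjusted p = 7.2e-05). The brassinosteroid enzyme Dwarf was likewise in the opposite class, with a fall of the tolerant plants by 1.38, a rise of 1.67 ± 0.13 in susceptible plants and an interaction of -3.05 ± 0.18 (adjusted p = 1.82e-06).

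Of 6 flower genes of the MADS-box family 5 had a called positive interaction, of 7 homeobox genes 3 (42.9%), and of 5 clock and light signalling genes 4, with no negative call in the 3 lists, against 37.5% called and 19.0% positive over all probe sets. Over the alternatives 2 to 5 of the MADS-box genes, 3 to 4 of the homeobox genes and 1 to 4 of the clock and light genes were positive. In the clock and light list CRY1A lost its call under 12 of the 24 alternatives, CO1 under 9 and CIP1 under 5. LeT6, a knotted-like homeobox gene of meristems and leaf shape, read 7.47, 8.09 and 6.77 on tolerant treated arrays, against 7.94, 7.45 and 5.76 on tolerant control arrays. It read 3.78, 3.98 and 3.75 on susceptible treated arrays, within the reporter range, against 6.99, 6.84 and 6.89 on susceptible control arrays, an interaction of at least 2.90 (adjusted p = 0.00341). LOC543932, a wound and stress protein, fell in both genotypes and had a measured interaction of 3.56 with no bound, since both treated groups lay within the reporter range.

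The MADS-box genes are also markers of flower tissue, and their signal was weak. On average over the 6 genes, levels were 6.93 to 7.11 on tolerant treated and 5.77 to 6.43 on tolerant control arrays, against 4.41 to 4.50 on susceptible treated and 4.72 to 4.81 on susceptible control arrays. Within the reporter range lay 1 and 3 of the 6 in tolerant treated and control plants, and 4 in each susceptible group. With values raised to background 3 of the 6 were still called. TDR6 was the brightest of them, with 9.37 ± 0.16 in treated and 9.10 ± 0.18 in control tolerant plants, against 8.09 ± 0.04 in treated and 9.63 ± 0.04 in control susceptible plants (interaction 1.82 ± 0.17, adjusted p = 2.65e-05). The part of flower tissue in these values was not tested. As markers of leaf, the 12 photosystem and chlorophyll genes averaged 9.74 to 10.06 on tolerant treated and 11.39 to 11.45 on tolerant control arrays, against 11.00 to 11.05 on susceptible treated and 11.38 to 11.51 on susceptible control arrays.

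Set beside the authors' deposited table for drought, which lists 2215 of the probe sets tested, the interactions here had the same sign for 2210 and were called for 1997 (90.2%). A further 1763 called probe sets are not in that table, which also asked for a fold change of at least 2. Responses computed here differed from those of the authors' deposited table by a median of 0.158 in tolerant and 0.126 in susceptible plants.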

How the data were processed

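Leaf RNA was measured on Affymetrix tomato arrays. The log2 probe set values were deposited by the authors in 1 value table. The submitters' processing notes name RMA 1.0 and the Affymetrix Expression Console, and the sources used here do not say if it was run on all arrays at once. The linear fold changes deposited by the authors stand in tables filtered, per the file headers, on a corrected p under 0.05 for the genotype by treatment term and a fold change of at least 2. From these tables come the gene symbols; 59 of 135 locus symbols were updated through a RefSeq gene table.

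The 12 arrays entered 1 limma 3.58.1 fit (R 4.3.3) of 4 group means with empirical Bayes moderation, and p-values were adjusted by Benjamini-Hochberg over all 10038 probe sets. The step was tested on simulated data. Precision is limited by having 3 arrays in a group. Of several probe sets for a gene, that with the smallest interaction p was used. Genes were named if among the 15 highest or 15 lowest interactions, among up to 5 highest and lowest of the opposite class, or in a gene list. The members and lists were chosen with earlier results of these data known. Alternatives changed the normalization, the filter, the floor, the weights, the moderation, the arrays and the covariates.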

Additional observations from a re-analysis of the deposited data

Results flagged for a closer look

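The responses of the 2 genotypes differed by the interaction term of the limma fit for 3760 probe sets, each a difference between groups under the same contrast. Among named genes with a higher susceptible response, the difference (tolerant minus susceptible, log2) was a measured -8.27 for pip1, -6.65 for PR-P2, -6.59 for ca3, -4.74 for CHI3, -4.64 for LOC544050, -4.56 for TBG3, -4.55 for HSP21 and -4.45 for HT2. As bounds it was -10.43 or lower for PR1b1, -7.34 or lower for P4, -4.27 or lower for P69B, -3.85 or lower for LOC543986 and -3.40 or lower for POR2. For rnale (-5.40) and CALM1LE (-5.10) it has no bound. The value for PR-P2 is that of a single probe set, and its other probe sets had called positive interactions (1.53 and 1.13).

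Among named genes with a higher tolerant response, the measured difference was 5.04 for Inps, 4.42 for CrtR-b2, 4.18 for systemin, 3.83 for IAA7, 3.46 for LOC778328 and 3.23 for psbF. It was at least 6.22 for IAA10, 5.41 for Cel1, 5.38 for TPP3, 3.66 for SNF4, 3.35 for XTH7, 3.17 for ext and 2.90 for LeT6. It has no bound for IAA11 (4.26), aos (3.89) and LOC543932 (3.56).

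The 63 reporter probe sets, which are left out of all counts of members, had a median response of 0.271 in tolerant plants, where 11 were called, against 0.038 in susceptible plants, where 1 was called. Their median interaction was 0.307, and 2 of the 63 were called, 1 in each direction.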

How the results depend on the processing

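Over 24 alternatives the interaction was called for 2533 to 4208 probe sets. All 31 genes named by their rank kept their call and direction wherever they could be tested. They were picked as extremes on these same arrays, so this is no independent check. Of all 258 named and list genes, 169 kept their status, called or not called, under every alternative. Array weights per genotype lowered the called tolerant responses to 3386 and raised the called susceptible responses to 7411, and weights per array raised the second to 7476; these weights let the spread differ between groups. Asking also for a difference of at least 1 left 2872 tolerant, 2446 susceptible and 126 opposite responses. Leaving out 1 array at a time gave 3113 to 4208 interactions, 4766 to 5298 tolerant, 3561 to 4789 susceptible and 428 to 663 opposite responses. Of the named and list genes with a called interaction, 2 reversed when values were raised to background, 20ox-1 to -0.139 and LeSSR2 to 0.386, neither called there. That floor also moved the median interaction of all probe sets to 0.189 and turned the sign of 47 called ones. With RNA integrity as a covariate 393 probe sets were opposite. The replicate block gave 3581 interactions, 4945 tolerant, 4174 susceptible and 515 opposite responses. Deviations of same-numbered arrays from their group means were weakly correlated (18 correlations between -0.128 and 0.116, 1 over 0.1). The labels give these samples only a shared number, and such correlations cannot show whether they share anything else. Signal over background limited the size of 637 called interactions, which have no bound.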

Other observations

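Large interactions also belonged to probe sets without a gene name. The unnamed one with the most negative measured interaction, -7.77, averaged 4.62 in tolerant treated and 9.75 in tolerant control plants, against 9.18 in susceptible treated and 6.53 in susceptible control plants, and its bound was -6.20 or lower. An unnamed one with a measured interaction of 7.93 averaged 6.49 and 5.09 in tolerant treated and control plants, against 4.18 and 10.71 in susceptible treated and control plants, and its bound was at least 6.79.

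Amino acid carriers were divided. The proline transporter LeProT2 rose by 0.54 ± 0.18 in tolerant and by 2.14 ± 0.18 in susceptible plants (interaction -1.60 ± 0.25), whereas the carrier LeAAP3 rose by 1.74 ± 0.23 in tolerant plants and showed -0.07 ± 0.23 in susceptible plants (interaction 1.81 ± 0.32). Of 5 proteinase inhibitor genes 1 had a called positive and 2 a called negative interaction, against 19.0% and 18.4% of all probe sets. The negative ones include LOC543954, at -2.89 ± 0.15. Its other probe set had a called positive interaction of at least 1.66 (adjusted p = 0.00239), so no single direction can be given for that gene. The cevi57 inhibitor was in the opposite class, at -1.37 or lower, and ER1 rose by at least 3.83 in tolerant and by 4.53 ± 0.21 in susceptible plants with no called interaction (-0.50 ± 0.29). Of 7 gibberellin and brassinosteroid genes 4 had a called positive and 2 a called negative interaction, against 19.0% and 18.4% of all probe sets. The positive count ranged from 1 to 4 over the alternatives. LeGAI lost its call under 15 of the 24 alternatives. The gene 20ox-1 lost its call under 4 that kept its sign, and it reversed without a call when values were raised to background. GAMyb-like LOC100037511 rose by 1.41 ± 0.17 in tolerant plants, against 0.11 ± 0.17 in susceptible plants.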
